A study of Rattus norvegicus with 9 samples.

Results

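The transcripts described here encode the nuclear-encoded subunits of the mitochondrial respiratory chain (complexes I to IV) and of ATP synthase (complex V), measured in rat dorsal root ganglia, which house the cell bodies of the sensory neurons along the spine. Members were chosen by gene symbol alone: every gene with a single annotated symbol that starts with Ndufa, Ndufb, Ndufc, Ndufs, Ndufv, Uqcr, Atp5 or Cox4 to Cox8, together with Sdha, Sdhb, Sdhc and Sdhd. The rule found 84 of the 10411 genes named on the array. They comprised 36 genes of complex I, 4 of complex II, 7 of complex III, 16 of complex IV, 16 of complex V and 5 complex I assembly factors (Ndufaf genes, which carry the same prefix and are described apart). One member, Cox6c-ps1, is named as a pseudogene. Another 7 probe sets carried a symbol of this kind together with a second symbol and were left out. They were those of Ndufa10, Ndufs5, Uqcrb, Cox7a2, Atp5mc1 and Atp5mc2, which are therefore not among the members, and a further one of Cox5a.

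Lumbar ganglia (L4 to L6) of Sprague-Dawley rats were profiled in 3 groups: normal rats on vehicle, rats made diabetic with streptozotocin (STZ, which kills pancreatic beta cells) on vehicle, and STZ-injected rats treated with FK1706, a drug that binds immunophilins. No normal rats received FK1706, and the sources used here do not state its dose. Tissue was collected 1 day after the end of 1, 2 or 3 weeks of dosing, and each of the 9 Affymetrix arrays holds pooled RNA of 5 rats. Each group therefore has 1 array per week, its n of 3 is the 3 weeks, and p-values measure the spread between pools and not between rats.

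Complex I takes electrons from NADH, complex II takes them from succinate, complex III passes them from ubiquinone to cytochrome c, and complex IV, cytochrome c oxidase, hands them to oxygen. Complexes I, III and IV pump protons, and complex V uses the proton gradient to make ATP. Sensory neurons depend on this supply because their long axons must maintain ion gradients and transport. Most subunits are encoded in the nucleus and are transcribed widely, with a few tissue-specific isoforms in complex IV. The factors NRF1, GABPA and YY1 are known to bind the promoters of many of these genes.

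The promoters of the 2 members with the smallest p-values in the comparison of STZ vehicle with normal rats are shown, because the results below turn on these genes. Each is the 300-base window from 250 bases before to 50 bases after the annotated start, 5′ to 3′ on the gene's own strand, from RefSeq (GRCr8). Atp5f1e encodes the epsilon subunit of the F1 head of ATP synthase, and its window lies on the minus strand of chromosome 3 at chr3:183680123-183680422. Uqcrq encodes a small subunit of complex III, and its window lies on the minus strand of chromosome 10 at chr10:38089929-38090228. Capitals mark the match to CCGGAAG, the letters searched for GABPA.
Atp5f1e: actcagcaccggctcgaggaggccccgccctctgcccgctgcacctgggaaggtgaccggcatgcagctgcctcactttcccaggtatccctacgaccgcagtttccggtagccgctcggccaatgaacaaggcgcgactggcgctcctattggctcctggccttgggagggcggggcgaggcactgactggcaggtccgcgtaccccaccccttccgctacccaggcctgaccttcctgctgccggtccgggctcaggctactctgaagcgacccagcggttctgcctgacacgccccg
Uqcrq: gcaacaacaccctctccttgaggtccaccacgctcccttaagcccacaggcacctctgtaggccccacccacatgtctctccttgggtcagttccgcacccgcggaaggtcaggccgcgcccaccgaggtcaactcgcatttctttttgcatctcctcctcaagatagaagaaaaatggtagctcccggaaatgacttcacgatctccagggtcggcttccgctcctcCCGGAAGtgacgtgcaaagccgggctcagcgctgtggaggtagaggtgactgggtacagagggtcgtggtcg
The Uqcrq window holds CCGGAAG at bases 229 to 235, with its first base at -22 relative to the start. The Atp5f1e window holds none of the 3 motifs searched, which says only that these letters are not in this window.

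Promoter windows were matched for 76 of the 84 members and searched on both strands for 3 motifs, none of which contains another. GCATGCG, searched for NRF1, was in 11 member windows (14.5%) and in 3.54% of all 27457 promoters of the same length. CCGGAAG was in 21 (27.6%) against 9.22%, and ATGGCGG, searched for YY1, was in 17 (22.4%) against 5.22%. At least 1 of the 3 was in 34 member windows (44.7%) and in 16% of all promoters. By complex, CCGGAAG was in 3 of 6 windows of complex III, 3 of 12 of complex IV and 5 of 15 of complex V. ATGGCGG was in 11 of 34 windows of complex I and 0 of 12 of complex IV. These matches describe letters in the windows and not binding.

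The deposited array signals were put on a log2 scale after an offset of 18.7 signal units had been added, and quantile-normalized, so that every difference below is relative to all genes on the arrays. Of the 84 members, 78 passed the filter on low values (a mean log2 level of 7.36) and were tested with limma, among 6990 genes. Just inside the filter lay Cox6c-ps1 at 7.39, and just outside lay Cox4i2 at 7.22 and Cox7a1 at 7.11. All 4 genes of complex II, 7 of complex III and 16 of complex V were tested, as were 35 of 36 of complex I, 11 of 16 of complex IV and all 5 assembly factors. The 73 tested subunits had a median log2 level of 11.2, against 8.92 for all genes tested. The brightest probe sets by complex were those of Ndufa1, Sdhb, Uqcrh, Cox4i1 and Atp5f1b, with mean deposited signals of 5008, 2411, 4274, 6530 and 6809. These signals are not comparable between genes.

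The tissue and the arrays were checked through marker genes. All 21 sensory neuron markers on the array were tested, and their median log2 level was between 11.5 and 11.7 on every array. The deposited signal was not at a common level: the median signal was 262 in the week 1 normal pool and 185 in the week 3 FK1706 pool. Correlations between arrays over all probe sets were between 0.969 and 0.981. Skeletal muscle markers differed most between pools and were highest in the normal week 2 pool. In comparisons with normal rats, the counts of lower subunits and the members at an unadjusted p under 0.05 are also given without that pool. In ganglia as a whole, a lower share of a cell type and less RNA per cell cannot be told apart.

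The subunit transcripts varied little. Over the 9 arrays, the median SD of the 73 tested subunits was 0.106 on the log2 scale, against 0.151 for all genes tested. The subunits were also brighter than the average gene, and the part of brightness in this spread was not tested. The SD was smallest for Ndufa8, an accessory subunit of complex I, at 0.032, and largest for Ndufs4, at 0.665. Ndufa8 was between 11.23 and 11.32 on all 9 arrays.

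The median of each complex also moved little from pool to pool. With each gene centred on its mean over the 9 arrays, the median of complex I ranged from -0.05 in the week 1 STZ vehicle pool to 0.08 in the week 2 normal pool. Complex II ranged from -0.06 to 0.06, complex III from -0.07 to 0.08, complex IV from -0.06 to 0.07 and complex V from -0.06 to 0.07. The normal week 2 pool was the highest for complexes I, IV and V, and the week 1 STZ vehicle pool was the lowest for complexes I, III and IV. No group kept 1 position in all complexes and weeks.

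**Figure D1:**
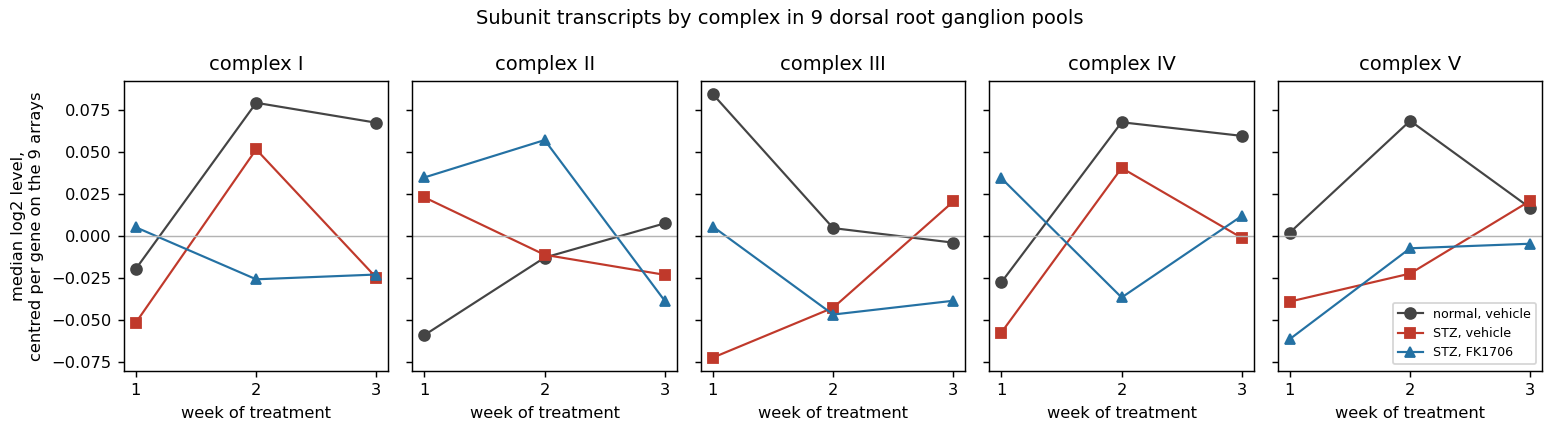
Median log2 level of the tested subunits of each complex, centred per gene on the 9 arrays, against week of treatment; each point is 1 pool of 5 rats and each line a group. All points lie between -0.07 and 0.08, and the order of the groups changes between weeks and complexes.

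The first comparison asks what STZ diabetes did to these transcripts. No member passed the test (limma, Benjamini-Hochberg adjusted p under 0.05): 0 of 78 were called, against 6 of 6990 genes (0.0858%). Of the 73 subunits, 48 were lower and 25 higher in STZ vehicle than in normal pools (65.8% lower, against 49.9% of all genes). At an unadjusted p under 0.05, 9 subunits were lower (12.3%, against 4.71% of all genes tested) and 1 was higher (1.37%, against 3.96%). In all 3 weeks 19 were lower (26%, against 16.1%) and 5 were higher (6.85%, against 14.8%). The differences were small: the 95% interval lay within 1.5-fold for 70 of 73 subunits, against 90% of all genes, the exceptions being Ndufa3, Ndufs4 and Atp5pb. For Ndufs4 the group means were close, at 8.47 (normal) and 8.55 (STZ vehicle). Its interval comes from a fit over all 9 arrays, which includes a week 1 FK1706 pool at 6.55.

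By complex, the median log2 difference between STZ vehicle and normal pools was -0.03 for complex I, 0.009 for complex II, -0.08 for complex III, -0.01 for complex IV and -0.02 for complex V, against 0.0004 for all genes tested. Within weeks 1, 2 and 3, the median of all 73 subunits was -0.04, -0.04 and -0.06. Complex I had 22 of 35 subunits lower, complex III 5 of 7, complex IV 8 of 11 and complex V 12 of 16. Complex II went the other way, with 1 of 4 lower and 3 higher.

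The lowest values in complex III were those of its small supernumerary subunits, which surround the catalytic core and carry no redox centre. The grouping into small and other subunits was made after the values had been seen, so it is a description. Uqcrq had log2 levels of 11.36, 11.47 and 11.50 in the normal pools of weeks 1 to 3, 11.13, 11.03 and 11.30 in the STZ vehicle pools and 11.40, 11.19 and 11.35 in the FK1706 pools. All 3 STZ vehicle pools lay below all 3 normal pools, and the FK1706 pools overlapped both. The same separation of STZ vehicle from normal pools held for Ndufa1, Ndufa2, Ndufa5, Ndufa6, Ndufa13 and Atp5f1b. The share of all genes whose pools separate between groups was not counted, here or in the comparisons below. For Uqcrq the difference between STZ vehicle and normal was -0.29 (SE 0.0762, adjusted p = 0.320), a 1.22-fold lower level.

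Uqcr10, a small subunit beside cytochrome c1, had levels of 11.79, 11.94 and 11.67 (normal), 11.61, 11.54 and 11.54 (STZ vehicle) and 11.74, 11.63 and 11.59 (FK1706). Here too every STZ vehicle pool was below every normal pool, with a difference of -0.24 (SE 0.0702, adjusted p = 0.402). For Uqcr11, another small subunit, the levels were 10.91, 11.08 and 10.98 (normal), 10.75, 10.73 and 10.76 (STZ vehicle) and 10.83, 10.70 and 10.70 (FK1706). Both STZ groups lay below the normal pools, and the difference of STZ vehicle from normal was -0.24 (SE 0.0758, adjusted p = 0.427). Uqcrh, the acidic hinge protein that binds cytochrome c1, differed by -0.08 (SE 0.0557, adjusted p = 0.708), and its groups overlapped. The 4 small subunits tested, which do not include Uqcrb, had a median of -0.24, and of -0.17, -0.37 and -0.16 in weeks 1, 2 and 3.

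The remaining tested subunits of complex III, which are not the catalytic core as a whole, had other values. Uqcrc2, a core protein by name, differed by 0.17 (SE 0.0824, adjusted p = 0.578). Uqcrc1, the other one so named, differed by 0.05 and the Rieske iron-sulfur protein Uqcrfs1 by -0.02. Their median was 0.05, and Uqcrc2 was at 0.07 without the normal week 2 pool. The difference between the small subunits and these was not tested.

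In complex V, Atp5f1e had the smallest p-value of all members. Its log2 levels were 11.71, 11.68 and 11.75 in the normal pools, 11.39, 11.49 and 11.45 in the STZ vehicle pools and 11.41, 11.61 and 11.56 in the FK1706 pools. The normal pools were above all 6 pools of STZ rats, which overlapped each other. STZ vehicle differed from normal by -0.27 (SE 0.0647, 95% interval -0.41 to -0.12, adjusted p = 0.298), a 1.2-fold lower level. The other subunits of the F1 head, which holds the catalytic sites, differed less: the 5 F1 genes had a median of -0.02, and the catalytic beta subunit Atp5f1b differed by -0.09 (adjusted p = 0.617).

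Atp5pb, the b subunit of the peripheral stalk that holds the F1 head still, had the highest positive difference. Its levels were 11.65, 11.20 and 11.35 (normal), 11.91, 11.70 and 11.65 (STZ vehicle) and 11.41, 11.68 and 11.57 (FK1706). STZ vehicle was above normal within each week, by 0.26, 0.50 and 0.30, although the lowest STZ vehicle pool and the highest normal pool were both at 11.65. The fitted difference was 0.35 (SE 0.109, adjusted p = 0.420). The other stalk and membrane subunits were lower or near 0: Atp5mk, a small membrane subunit, differed by -0.17 (adjusted p = 0.578), and the 11 genes outside F1 had a median of -0.02.

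**Figure D2:**
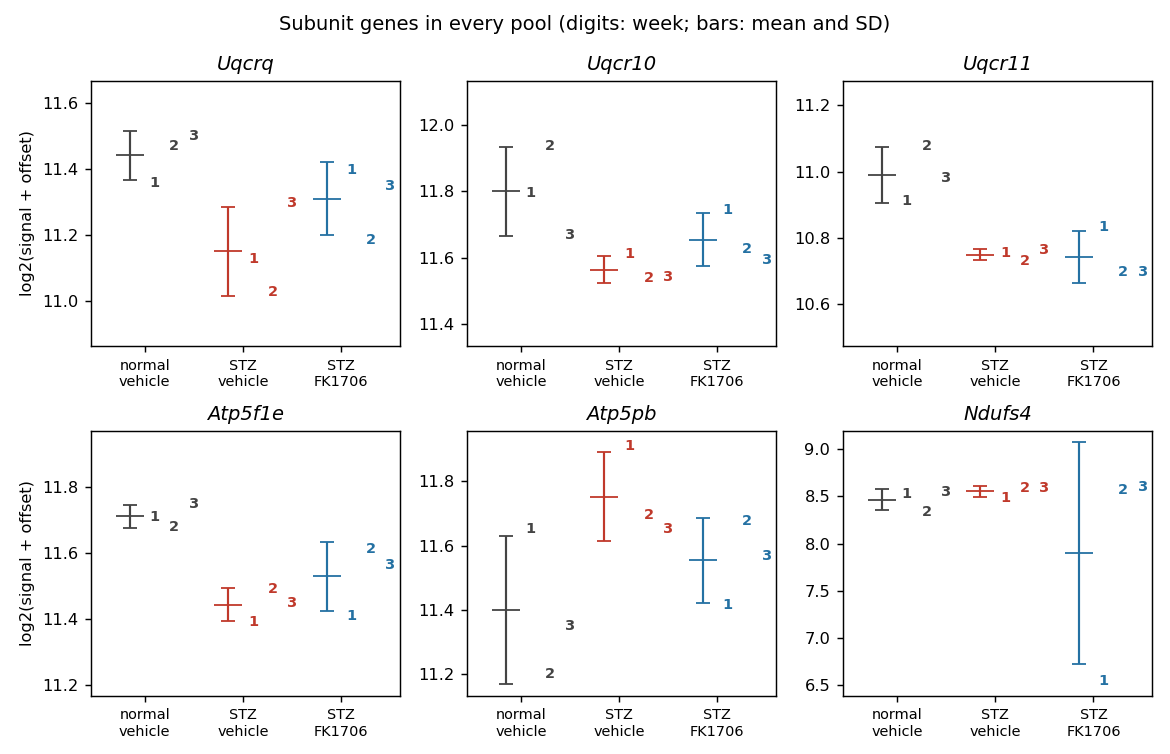
Log2 level of Uqcrq, Uqcr10, Uqcr11, Atp5f1e, Atp5pb and Ndufs4 in every pool; the digit is the week and marks the pool's value, and the bar to its left is the group mean with SD (n = 3 pools). STZ vehicle pools lie below all normal pools for Uqcrq, Uqcr10, Uqcr11 and Atp5f1e, and Ndufs4 is at 6.55 in the week 1 FK1706 pool alone. Some subunits not shown, among them Ndufa6 and Atp5f1b, also have all STZ vehicle pools below all normal pools.

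In complex I, 4 accessory subunits were lower at an unadjusted p under 0.05, and no core subunit was. Ndufa3 had the widest difference, -0.47 (SE 0.174, 95% interval -0.85 to -0.09, adjusted p = 0.481). Its levels were 10.57, 11.17 and 11.17 (normal), 10.54, 10.58 and 10.37 (STZ vehicle) and 11.00, 10.46 and 10.59 (FK1706). The week 1 normal pool lay among the STZ pools, and the difference came from weeks 2 and 3, at -0.58 and -0.80 against -0.02 in week 1.

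The other 3 were Ndufb9 at -0.19 (adjusted p = 0.498), Ndufa5 at -0.23 (adjusted p = 0.556) and Ndufa1, which is needed to build the membrane arm, at -0.15 (adjusted p = 0.540). Each was lower in all 3 weeks. Without the normal week 2 pool they were at -0.10, -0.14 and -0.10 and Ndufa3 was at -0.34, none of the 4 at an unadjusted p under 0.05. The 6 tested core subunits, which carry the flavin or the iron-sulfur clusters or sit beside them (Ndufs1, Ndufs3, Ndufs7, Ndufs8, Ndufv1 and Ndufv2), had a median of 0.05, from -0.19 for Ndufs1 to 0.14 for Ndufv2, which was at -0.04 without that pool. The 29 tested accessory genes had a median of -0.04. This split was also made after the values had been seen.

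In complex II, which has only 4 subunits, none differed at an unadjusted p under 0.05. The flavoprotein Sdha differed by 0.01, the iron-sulfur protein Sdhb by -0.02 and the membrane anchor Sdhd by 0.003. Sdhc, the other membrane anchor, was at 10.65, 10.46 and 10.52 (normal), 10.70, 10.59 and 10.98 (STZ vehicle) and 10.45, 10.67 and 10.60 (FK1706). Its difference was 0.21 (SE 0.102, adjusted p = 0.578), and the week 3 STZ vehicle pool was the highest of the 9.

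In complex IV the isoforms that most tissues express were near 0. Cox4i1, the regulatory subunit, differed by -0.04, Cox6a1 by 0.02, Cox6b1 by -0.001 and Cox8a by -0.02, and all had adjusted p-values of at least 0.842. Cox6c was at -0.16 (SE 0.0692, adjusted p = 0.554), and at -0.07 without the normal week 2 pool. Cox7c was at -0.10, Cox7b at 0.07 (0.16 without that pool) and Cox5a at -0.19 with an SE of 0.17, its week 1 STZ vehicle pool being at 8.10 against 8.44 to 8.86 elsewhere. Without that STZ vehicle pool Cox5a was at 0.05. The Cox5a probe set used had a mean deposited signal of 384, and another one, shared with a second symbol, was left out. Ndufa4, listed here by its symbol with complex I but now regarded as a subunit of complex IV, differed by 0.03. Atp5if1, the inhibitor that stops ATP synthase from running backwards, differed by -0.006.

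The tissue-specific isoforms of complex IV lay below the filter and were not tested. Cox6a2, Cox7a1 and Cox8b are isoforms of heart and skeletal muscle, Cox4i2 is best known from lung, Cox6b2 from testis, and Ndufa4l2 is a relative of Ndufa4 that is induced by low oxygen. Cox6a2 had deposited signals from 4.9 to 21.9, Cox8b from 3.9 to 10.1 and Cox6b2 from 2.5 to 26.4. These are near or below the offset of 18.7, so their order carries little. Cox4i2 had deposited signals from 68.3 to 214.8 and Cox7a1 from 73.8 to 212.4, with overlap of all groups.

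Muscle markers stood beside these values. Acta1, skeletal muscle actin, was at a log2 level of 10.75 in the normal week 2 pool and between 8.40 and 10.12 in the other 8. Myl1, a myosin light chain, was at 9.48 there and Ckm, muscle creatine kinase, at 9.57. Cox7a1, the muscle isoform with signal above the offset, was highest in the normal week 1 pool at 7.60. Of the 28 muscle markers on the array 12 were tested, and 11 of the 12 were lower in STZ vehicle than in normal, 0 of them called. That count came from week 2: the median of the 12 was -1.74 in week 2, against 0.31 in week 1 and 0.18 in week 3. Without the normal week 2 pool 6 were higher and 6 lower, with a median of 0.0004. Their summed deposited signal over the 28 was 7005 to 12542 in normal, 5717 to 8481 in STZ vehicle and 4972 to 7602 in FK1706 pools.

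**Figure D3:**
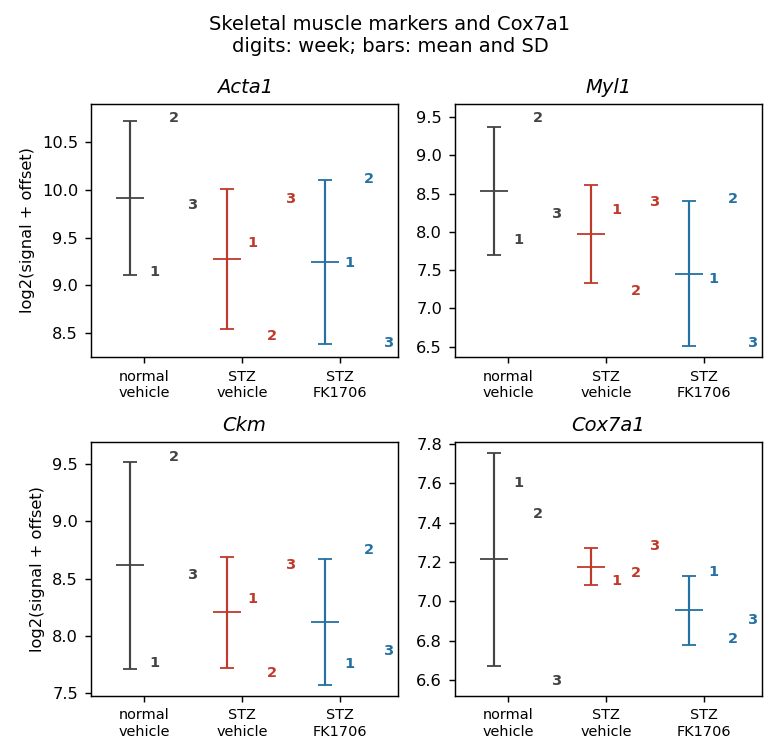
Log2 level of the skeletal muscle markers Acta1, Myl1 and Ckm and of the muscle isoform Cox7a1 in every pool; the digit is the week and marks the pool's value, and the bar to its left is the group mean with SD (n = 3 pools). The normal week 2 pool is the highest for Acta1, Myl1 and Ckm, and the normal week 1 pool for Cox7a1.

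Without the normal week 2 pool, 47 of 73 subunits were lower in STZ vehicle than in normal (64.4%, against 50.1% of all genes), but the count at an unadjusted p under 0.05 was 4 in place of 9 (5.48%, against 3.48% of all genes). The median of the small complex III subunits was then -0.17 relative to all genes, in place of -0.24. Uqcrq was at -0.22, Uqcr10 at -0.15, Uqcr11 at -0.18 and Atp5f1e at -0.32 without it, with adjusted p-values from 0.382 to 0.758. Atp5pb was at 0.24 without it (adjusted p = 0.758). The count of lower subunits at an unadjusted p under 0.05 was 5 without the week 3 STZ vehicle pool (6.85%, against 3.49% of all genes) and 2 without week 2 in every group (2.74%, against 3.81%). On the deposited scale, where the median of all genes was -0.10, it was 22 (30.1%, against 13.7% of all genes). The part of muscle RNA in these differences was not tested.

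Markers of the other cell types of the ganglion had these values in the first comparison. Of 14 tested Schwann cell markers, 13 were lower in STZ vehicle (median -0.16), 7 of them at an unadjusted p under 0.05 (4.71% of all genes were) and 0 called. Of 10 fibroblast markers 8 were lower (median -0.28), and the collagens Col1a1 (-0.82, adjusted p = 0.0105) and Col3a1 (-0.54, adjusted p = 0.0106) were called. Satellite glia, which enclose the neurons, had 3 of 7 markers higher and 4 lower (median -0.09), and endothelial cells 3 of 5 higher and 2 lower (median 0.004). In both lists 0 were called. At an unadjusted p under 0.05 limma gave 0 satellite glia markers and 1 endothelial marker, which was higher. The 21 sensory neuron markers had a median of 0.01, with 12 higher and 9 lower. Of these, 3 were higher at an unadjusted p under 0.05 by limma (3.96% of all genes were), 0 were lower and 0 were called. Of 7 macrophage markers 5 were lower and 2 higher (median -0.13). Limma called 0 of them, and 1 was lower at an unadjusted p under 0.05. The summed deposited signal of the 15 Schwann cell markers was 49948 to 64572 in normal, 44271 to 61398 in STZ vehicle and 43358 to 55030 in FK1706 pools. Their part in the values of the subunits was not tested.

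The second comparison asks what FK1706 did in STZ rats. It shares the STZ vehicle pools with the first comparison, so the 2 sets of values are not independent. Again 0 of 78 members were called, and 0 of 6990 genes were (0%); at an unadjusted p under 0.05 limma gave 2 members and 220 genes (3.15%). Of the 73 subunits 37 were higher and 36 lower (49.6% of all genes were lower). All 5 complexes had medians near 0: 0.01 for complex I, 0.02 for complex II, 0.02 for complex III, -0.0002 for complex IV and -0.02 for complex V, against 0.001 for all genes. The 95% interval lay within 1.5-fold for 71 of 73 subunits, against 92.6% of all genes, the exceptions being Ndufs4 and Cox6c-ps1. The even split of higher and lower subunits moved with the pools used. Without the week 1 FK1706 pool 44 of 73 were lower (60.3%, against 50% of all genes). Without week 2 in every group 28 were (38.4%, against 48.7%).

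Ndufab1, the mitochondrial acyl carrier protein that is also a complex I subunit, was at 10.66, 10.88 and 10.85 in STZ vehicle, 10.70, 11.24 and 11.04 in FK1706 and 10.65, 10.94 and 10.79 in normal pools. FK1706 was above STZ vehicle in each week, by 0.05, 0.36 and 0.19, with a fitted difference of 0.20 (SE 0.0770, adjusted p = 0.999). Ndufb1, a small subunit of the membrane arm, was at 10.69, 10.82 and 10.60 in STZ vehicle, 10.56, 10.47 and 10.38 in FK1706 and 10.47, 10.77 and 10.80 in normal pools. Here every FK1706 pool was below every STZ vehicle pool, and the difference was -0.23 (SE 0.0981, adjusted p = 0.999).

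The genes that were lowest in STZ vehicle relative to normal had these values under FK1706. Uqcrq was higher than in STZ vehicle by 0.16 (SE 0.0762), Uqcr10 by 0.09 (SE 0.0702) and Atp5f1e by 0.08 (SE 0.0647), while Uqcr11 was at -0.008 (SE 0.0758). Atp5pb, the highest in STZ vehicle, was at -0.20 (SE 0.109) under FK1706. Without the week 1 FK1706 pool Atp5pb was at -0.03, Uqcrq at 0.09, Uqcr10 at 0.06 and Atp5f1e at 0.13. None passed the test, with an adjusted p of 0.999 for each. A value that is low in the STZ vehicle pools enters both comparisons, with opposite signs.

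Among the remaining members with the largest test statistics, Ndufa12, Ndufa5 and Cox5a were at 0.15, 0.20 and 0.19, and Sdha was at 0.11. Uqcrc2, Sdhc, Atp5mg and Atp5f1a were at -0.14, -0.18, -0.09 and -0.08. Each had an adjusted p of 0.999. Without the week 1 FK1706 pool Ndufa5 was at 0.10, Cox5a at -0.005, Uqcrc2 at -0.08, Sdhc at -0.11 and Atp5mg at -0.03. Cox6c-ps1 had a wide interval, at 0.32 (SE 0.205), or 0.16 without that pool, and lay at the edge of the filter.

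**Figure D4:**
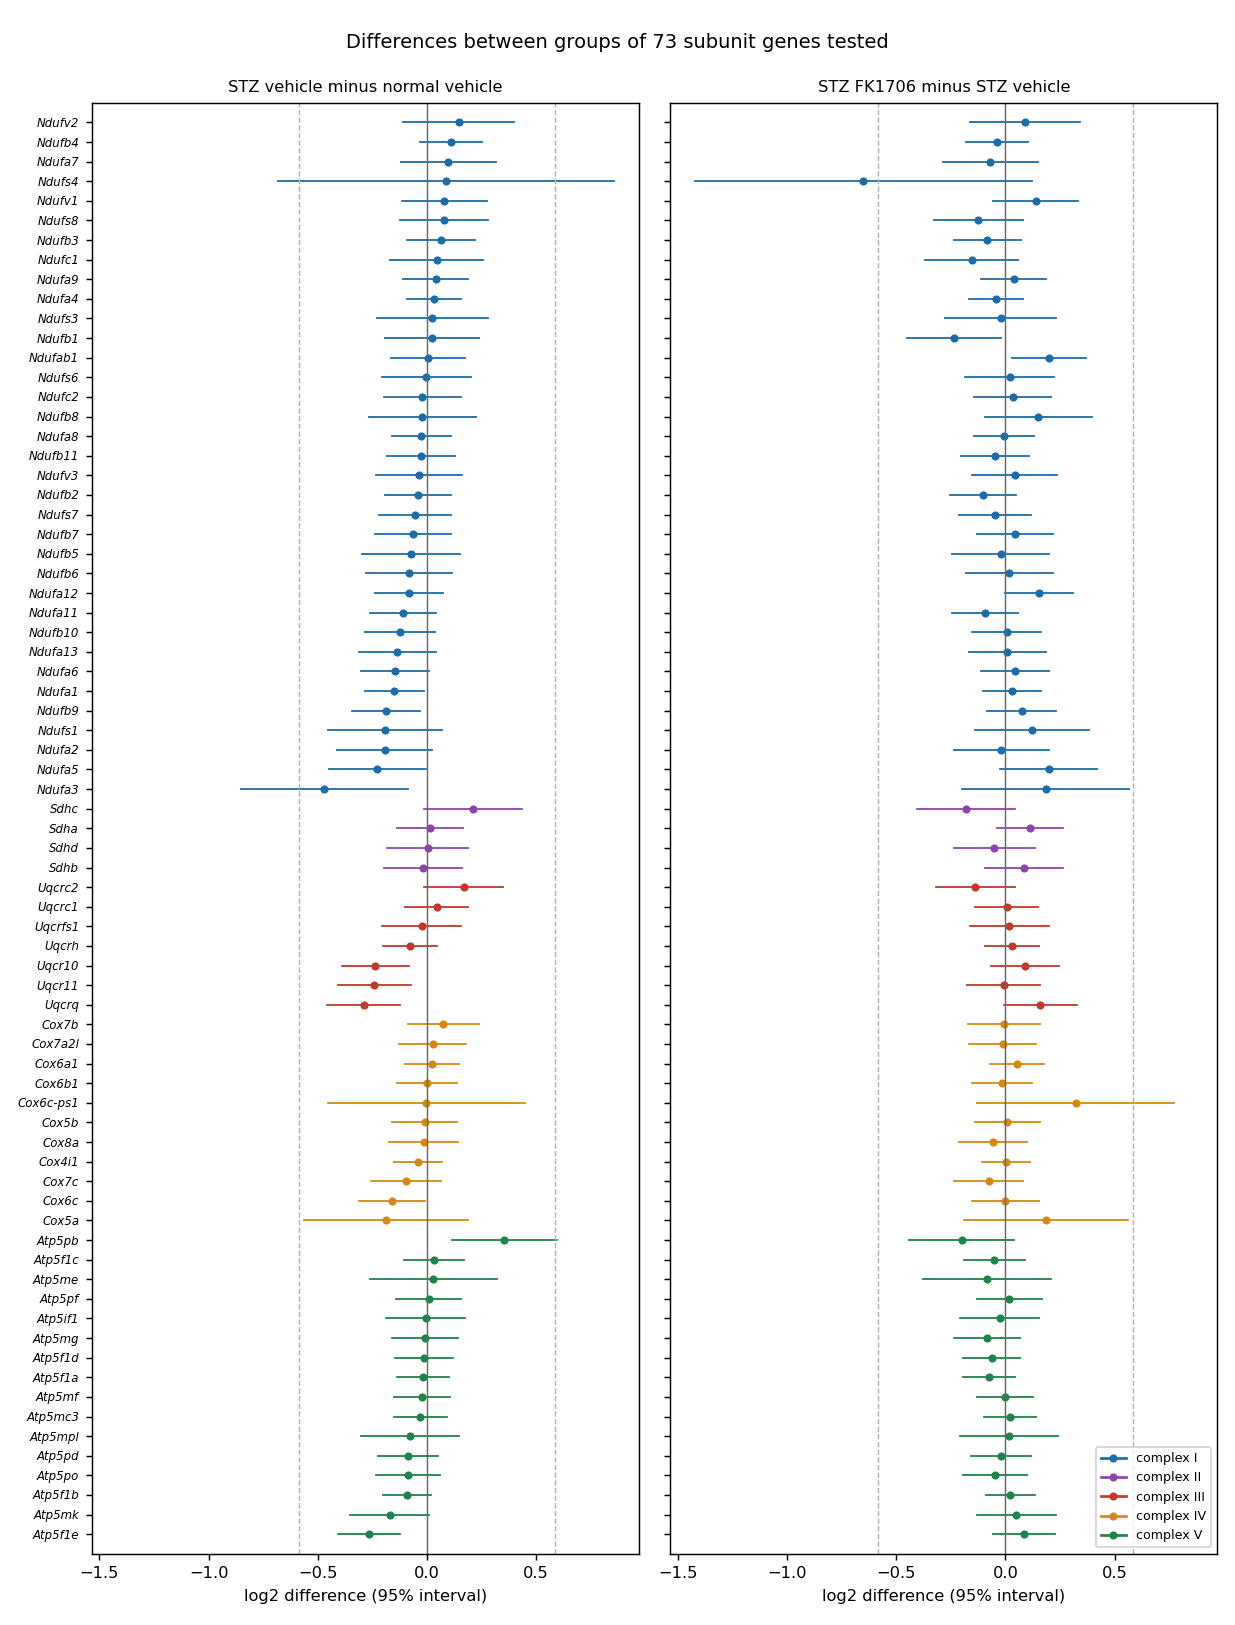
Log2 difference of each of the 73 tested subunits with its 95% interval (limma, 9 arrays), for STZ vehicle minus normal vehicle (left) and STZ FK1706 minus STZ vehicle (right); colours mark the complex, genes are ordered by the left panel within each complex, and dashed lines mark 1.5-fold. No subunit passed the test in either panel, and Ndufs4 has the widest intervals.

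One pool decided the value of Ndufs4, an accessory subunit needed to complete the assembly of complex I. It was chosen after its values had been seen. Its log2 levels were 8.52, 8.33 and 8.54 (normal), 8.49, 8.59 and 8.59 (STZ vehicle) and 6.55, 8.56 and 8.60 (FK1706). In deposited units the week 1 FK1706 pool was at 74.5, while the other 8 were between 313.9 and 429.9. The difference between FK1706 and STZ vehicle was -0.65 (SE 0.350, adjusted p = 0.999), and without that pool it was 0.03. The other 8 pools lay within 8.33 and 8.60.

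The third comparison sets FK1706-treated STZ rats against normal rats and shares the normal pools with the first. No member of 78 was called, against 1 of 6990 genes (0.0143%), Txnip, an inhibitor of thioredoxin. Of the 73 subunits 50 were lower and 23 higher (68.5% lower, against 50.1% of all genes). The median of the 73 was 0.009, -0.09 and -0.05 in weeks 1, 2 and 3, so it was not lower in week 1. In that week complex I had a median of 0.05 and complex IV of 0.08. At an unadjusted p under 0.05, 5 were lower (6.85%, against 4.49%) and 2 higher (2.74%, against 3.68%), which is near the background with all 9 arrays. Complex V had 14 of 16 genes lower, with a median of -0.06 and medians of -0.07, -0.11 and 0.02 in weeks 1, 2 and 3. The medians were -0.05 for complex I, 0.05 for complex II, -0.05 for complex III and -0.0009 for complex IV. Without the normal week 2 pool 49 of 73 subunits were lower (67.1%, against 50.4%), 4 of them at an unadjusted p under 0.05 (5.48%, against 3.96%). That last count was 10 without the week 1 FK1706 pool (13.7%, against 5.39%) and 2 without week 2 in every group (2.74%, against 3.69%). On the deposited scale it was 45 (61.6%, against 26.5% of all genes).

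Uqcr11 was at -0.25 (SE 0.0758, adjusted p = 0.401), Atp5f1e at -0.18 (adjusted p = 0.518) and Cox6c at -0.16 (adjusted p = 0.591), beside -0.24, -0.27 and -0.16 in the first comparison. Ndufa11, a membrane-arm subunit, was at 10.63, 10.75 and 10.64 in normal and 10.47, 10.49 and 10.45 in FK1706 pools, which do not overlap, and at 10.52, 10.64 and 10.54 in STZ vehicle, which overlapped the normal pools. Its difference was -0.20 (SE 0.0691, adjusted p = 0.482). Cox7c was at -0.17 (adjusted p = 0.589). Ndufab1 at 0.20 and Ndufv1, the flavin-carrying subunit that takes electrons from NADH, at 0.22 were the 2 higher ones, with adjusted p-values of 0.554 and 0.587. Without the normal week 2 pool, Uqcr11 was at -0.19, Atp5f1e at -0.23, Cox6c at -0.07, Ndufa11 at -0.19, Cox7c at -0.15, Ndufab1 at 0.20 and Ndufv1 at 0.17. Cox7c was at -0.27 and Ndufv1 at 0.15 without the week 1 FK1706 pool. Ndufb1 was at -0.21, Atp5po, the stalk subunit that gives oligomycin sensitivity, at -0.13, Atp5pd at -0.10 and Atp5f1a at -0.10, none of them at an unadjusted p under 0.05. On the deposited scale, where the median of all genes was -0.17, limma called Uqcr11, Ndufa11, Cox7c and Atp5f1e lower (4 of 78 members, 5.13%), and 106 of 6991 genes (1.52%).

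The weeks were compared over all 3 groups, each week holding 1 pool per group. No member was called between any 2 weeks, and 1 of 6990 genes (0.0143%) was called in each of the 3 comparisons (Col3a1, Rap1gap and U2af2). From week 1 to week 2, 50 of 73 subunits were higher (51% of all genes were). Their median change was 0.06 in normal, 0.07 in STZ vehicle and -0.03 in FK1706 pools, so it was not positive in every group. Over all groups, the medians of complexes I, II, III, IV and V were 0.05, -0.01, 0.002, 0.07 and 0.05, against 0.003 for all genes. Of the 73, 8 were higher (11%, against 2.85% of all genes) and 1 lower (1.37%, against 2.95%) at an unadjusted p under 0.05. Ndufab1 was higher by 0.35 (SE 0.0770, adjusted p = 0.456), and in each group, by 0.30, 0.22 and 0.54 in normal, STZ vehicle and FK1706. Ndufb7, Cox6c, Atp5mk, Atp5mg, Atp5pd, Ndufb9 and Sdhb were higher by 0.21, 0.18, 0.20, 0.17, 0.15, 0.16 and 0.19, and Ndufv1 was at -0.21, with adjusted p-values from 0.819 to 0.836. On the deposited scale, where the median of all genes was -0.20, Cox6c, Atp5mg, Atp5pd, Ndufb9 and Sdhb had the opposite sign. With all pools 23 of 73 subunits were lower in week 2 (31.5%, against 49% of all genes). Without the normal week 2 pool 30 were (41.1%, against 49.5%), and Cox6c was at 0.09 and Ndufb9 at 0.08. Without the week 1 FK1706 pool 17 were (23.3%, against 48%), and Cox6c was at 0.24.

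From week 2 to week 3, Uqcrh was at 0.13, Ndufb7 at -0.19 and Sdhb at -0.18, with adjusted p-values from 0.457 to 0.494, and 31 of 73 subunits were higher (48.4% of all genes were). These 3 of 78 members at an unadjusted p under 0.05 compare with 10.1% of all genes. Between week 1 and week 3, 48 of 73 were higher (48.9% of all genes were), and the 6 members at an unadjusted p under 0.05 (12.8% of all genes were) were Ndufab1 at 0.23, Ndufa12 at 0.19, Cox8a at 0.18, Atp5mpl at 0.23, Uqcrh at 0.13 and the assembly factor Ndufaf5 at 0.34, with adjusted p-values from 0.27 to 0.366. All 6 were negative on the deposited scale, where the median of all genes was -0.43. With quantile normalization, the median change of the 73 subunits from week 1 to week 3 was 0.06 in normal, 0.04 in STZ vehicle and -0.01 in FK1706 pools.

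Whether a linear week trend differed between groups was tested over all genes with 2 residual degrees of freedom. No member of 78 and 0 of 6990 genes (0%) were called by limma, and 4 members and 286 genes (4.09%) were at an unadjusted p under 0.05. The 4 were Ndufs4, Ndufs3, Ndufa3 and Atp5mpl, each with an adjusted p of 0.999. The slope of Ndufs4 in FK1706 relative to normal, 1.02 per week, includes its week 1 FK1706 pool at 6.55. All other pools were between 8.33 and 8.60. Leaving out 1 STZ vehicle pool left 1 residual degree of freedom and turned Ndufs4 into a call for each of the 3 pools (adjusted p from 7.37e-05 to 4.26e-04), and Ndufa3 for 2 of them (adjusted p of 0.0274 and 0.0476). All genes called numbered 54, 30 and 26 of 6990 (0.773%, 0.429% and 0.372%) without the week 1, 2 and 3 pool. Without any 1 of the normal or FK1706 pools no member was called.

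The 5 assembly factors, which help to build complex I and do not stay in it, were low in signal, with a median log2 level of 8.27. Between STZ vehicle and normal, Ndufaf3 was at -0.15, Ndufaf4 at -0.06, Ndufaf5 at 0.06, Ndufaf7 at -0.05 and Ndufaf8 at -0.12. Between FK1706 and STZ vehicle, Ndufaf3 was at 0.17 and the other 4 were within -0.03 and 0.04. Adjusted p-values were at least 0.750 in both.

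Other genes of the pathway were taken from lists. The genes of mitochondrial DNA, which encode the remaining subunits, were not found on the array by symbol. Of 63 partners of the chain (electron carriers, coenzyme Q synthesis, further assembly factors of complexes I to V, carriers and uncoupling proteins), 55 were on the array and 49 were tested. In the first comparison 25 were higher and 24 lower with a median of 0.006, and 0 were called or at an unadjusted p under 0.05 in any of the 3 group comparisons by limma. Cox17, the copper chaperone of complex IV, was at -0.17 (adjusted p = 0.60), Sdhaf1, which inserts iron-sulfur clusters into complex II, at -0.20 (adjusted p = 0.584) and the outer-membrane channel Vdac2 at 0.16 (adjusted p = 0.578). Under FK1706, Dhodh, the pyrimidine-synthesis enzyme that feeds ubiquinone, was at 0.22 (adjusted p = 0.999).

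Of 20 tested genes of the citric acid cycle and pyruvate dehydrogenase, which supply NADH and succinate, 12 were higher and 8 lower in STZ vehicle than in normal, with a median of 0.02, and 0 were called. Dld, the shared dihydrolipoamide dehydrogenase, was the 1 gene at an unadjusted p under 0.05, at 0.19 (SE 0.0799, adjusted p = 0.554). Pdk2 and Pdk4, kinases that switch off pyruvate dehydrogenase, were at 0.28 and 0.25 (adjusted p-values 0.608 and 0.647). Citrate synthase, Cs, was at 0.15 under FK1706 (adjusted p = 0.999). Of 22 regulators of mitochondrial biogenesis and mitochondrial DNA upkeep, 13 were on the array and 8 were tested, 0 of them called, with medians of 0.01 in both comparisons. Sirt3, a mitochondrial deacetylase, was at 0.12 in STZ vehicle against normal, and Polg, the mitochondrial DNA polymerase, at 0.20 under FK1706, with adjusted p-values of 0.792 and 0.999.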

How the data were processed

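Total RNA of L4 to L6 ganglia was extracted per rat and equal amounts from 5 rats were pooled for each group and week, per the labels, giving 9 one-colour Affymetrix arrays. Each deposited value is a linear-scale intensity for 1 probe set; MAS5 is named as its source per the submitters' processing notes, without a version. Array levels were not matched in these values. With 9 arrays, precision is limited by their number. Of 15923 probe sets (57 controls), 12783 had 1 symbol, and each of 10411 genes was represented by its brightest probe set. Before log2 and quantile normalization 18.7 (the 10th percentile) was added to each value, and genes in the lowest part of the range (mean under the 40th percentile over probe sets) were dropped, leaving 6990.

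limma 3.58.1 (R 4.3.3; lmFit, eBayes with a trend) was fitted to all 6990 genes with group and week as factors (9 arrays, 4 residual degrees of freedom), with two-sided tests and Benjamini-Hochberg adjustment over all of them; a gene was called at an adjusted p under 0.05. A second fit with a linear week term per group (2 residual degrees of freedom) tested trends. Week entered as a block because the labels give each week as a shared sampling time; same-week pools deviated from their group means with correlations from 0.01 to 0.33. The scripts were tested on simulated data. Members, gene lists and tests were chosen with earlier results of these data known. Named genes were, per comparison, up to 4 per complex with the largest test statistic, and the tissue isoforms, complex II genes, inhibitors, assembly factors and brightest genes; others are marked as chosen after their values were seen. Complexes and lists are described by counts and medians, without a test. Alternatives changed the scale, the offset, the filter, the probe set rule, the block, the variance trend, the complex of Ndufa4 and the pools used. Promoters came from RefSeq (GRCr8) through Python 3.11.15.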

Additional observations from a re-analysis of the deposited data

How the results depend on the processing

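Calls and directions were recomputed under 10 other settings and after leaving out each pool and each week. Without the replicate block (week), 0 members were called in each of the 3 group comparisons, 48 subunits were lower in STZ vehicle than in normal, 8 of them at an unadjusted p under 0.05, and no call changed. Leaving out pools or weeks gave 0 called members in each of the 6 comparisons and from 0 to 2 in the trend test, 41 to 48 subunits lower than the median of all genes and 2 to 11 at an unadjusted p under 0.05; the last count was 5 with eBayes without a trend and 22 on the deposited scale. Single-member values of the 6 comparisons numbered 1680, of which 1626 kept direction and side of the threshold, 7 became calls on the deposited scale and 47 changed sign, 21 of these on the deposited scale and 26 when a pool or week was left out; 12 of the 47 had an unadjusted p under 0.05 with either setting.

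On the deposited scale, whose arrays drop in signal over the weeks, week 2 minus week 1 was -0.0214 for Atp5mg, -0.0637 for Atp5pd, -0.00648 for Cox6c, -0.0361 for Ndufb9 and -0.0149 for Sdhb, week 3 minus week 2 was -0.125 for Uqcrh, and week 3 minus week 1 was -0.243 for Atp5mpl, -0.231 for Cox8a, -0.283 for Ndufa12, -0.249 for Ndufab1, -0.00713 for Ndufaf5 and -0.296 for Uqcrh. STZ vehicle minus normal was there -0.0869 for Sdha, -0.104 for Sdhd and -0.0291 for Cox7b, FK1706 minus STZ vehicle was -0.0193 for Uqcrh and -0.00185 for Cox6a1, and FK1706 minus normal was -0.0502 for Sdha, -0.109 for Sdhb, -0.140 for Sdhc and -0.0781 for Cox6a1. That scale called 0, 0 and 4 members in the 3 group comparisons (16, 0 and 106 of 6991 genes) and 2, 44 and 72 of 78 between weeks 2 and 1, 3 and 2, and 3 and 1 (2.56%, 56.4% and 92.3%, against 2.4%, 23% and 73% of all genes); the median of all genes was -0.20, -0.22 and -0.43 between the weeks.

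The other changes of sign came from leaving out pools. For STZ vehicle minus normal, leaving out 1 pool gave -0.0331 to 0.0508 for Sdha, -0.123 to 0.0639 for Sdhb, -0.0712 to 0.0724 for Sdhd and -0.387 to 0.0517 for Cox5a; without week 1, Sdha, Sdhd and Cox5a were at -0.0233, -0.0328 and 0.00355, and Sdhb was at 0.00617 without week 2 and 0.0667 without week 3. For FK1706 minus STZ vehicle the ranges were -0.145 to 0.0437 for Sdhd, -0.0518 to 0.395 for Cox5a and -1.01 to 0.0251 for Ndufs4, with Cox5a at -0.1000 without week 1 and Sdhd at 0.0289 without week 3. For FK1706 minus normal they were -0.0388 to 0.149 for Sdhb, -0.0806 to 0.128 for Sdhc and -0.142 to 0.0470 for Sdhd, with Sdhb at -0.0371 without week 1, Sdhc at -0.0602 without week 2 and Sdhd at 0.0618 without week 3.

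Of 295 complex medians relative to all genes under other settings, 286 stayed within 1 SD between weeks or groups. For week 3 minus week 2 the deposited scale gave -0.0802, -0.0708, 0.0201 and -0.0530 for complexes I, III, IV and V, and scaling to a common trimmed mean gave -0.0629 for complex III and -0.0440 for complex V. For week 3 minus week 1, complex I was at -0.0304 on the deposited scale and complex IV at 0.0589 with no filter. For FK1706 minus STZ vehicle, complex V was at 0.00910 with the mean of all probe sets. When pools or weeks were left out, complex IV ranged from -0.0378 to 0.0129 for STZ vehicle minus normal, complex V from -0.0358 to -0.00470 for FK1706 minus STZ vehicle (-0.0355 without the week 3 FK1706 pool), complexes III, IV and V from -0.0438 to 0.0256, -0.0350 to 0.107 and 0.0263 to 0.0629 for week 2 minus week 1, complex IV from -0.0169 to 0.0587 for week 3 minus week 2, and complexes IV and V from -0.00419 to 0.0801 and 0.0348 to 0.0804 for week 3 minus week 1. The cause of these movements was not tested. With 1 pool of 5 rats per group and week, the spread between rats was not measured, and dim members near the offset have no usable order.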

Other observations

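Of the 84 members, 4 had more than 1 probe set, and the dimmer ones were set beside those used, for STZ vehicle minus normal. Sdhd was at 0.08 (SE 0.0828) on its second probe set and at 0.003 (SE 0.0825) on the one used. Ndufv3 was at 0.009 against -0.04, with SEs of 0.187 and 0.0828. Atp5if1 was at -0.008 and 0.08 on 2 dimmer probe sets, against -0.006. Atp5me was at -0.44 (SE 0.496) on a probe set with a mean deposited signal of 58.8 and at 0.03 (SE 0.137) on the one used, whose mean signal was 882. None of these differences exceeded its SE.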
